A study of Arabidopsis thaliana with 20 samples.

Results

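The nuclear genome of Arabidopsis thaliana encodes many of the protein subunits of the photosynthetic electron transport chain, and 35 of these genes are described here across the 6 groups of the study. They were taken from the count tables by locus: 13 photosystem I genes, 12 photosystem II genes, 7 genes of electron carriers and 3 of the chloroplast ATP synthase, out of 34262 genes listed. All 35 passed the filter on low counts that left 21703 genes for testing. Not all are lasting subunits: PSB27 and PSB28 are assembly and repair proteins of photosystem II, and PSAP is also named CURT1B, a protein that bends thylakoid membranes.

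RNA was sequenced from the aboveground tissue of bolting plants. All samples share the same stated growth conditions, temperatures of 22 and 20 °C and a photoperiod of 12 h. The Col-0 line PPD3-OX, which overexpresses the plastid PsbP-domain protein PPD3, gave 5 groups of plants, set beside wild type (WT, n = 3). Carriers of the transgene (PPD3-OX T+) were dwarf (n = 3) or normal (n = 3), their Gen1 siblings without it (PPD3-OX null) were dwarf (n = 3), and the Gen2 progeny of Gen1, also null, were dwarf (n = 5) or large (n = 3). The labels name neither the promoter of the transgene nor the number of independent lines or an age in days, and they give Col-1 as ecotype for WT 3 but Col-0 as its source. The labels call the samples biological replicates without saying whether a sample was 1 plant or a pool, so p-values rest on the spread among the samples as collected.

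Each sample held 45728485 to 117753467 gene counts, and the 35 genes took 2.27 to 4.46% of them. Levels are in CPM, read counts per 1000000 after edgeR's TMM scaling of library sizes, and differences are log2 values with their standard error (SE). PPD3, the check of the labels, stood at 381 to 747 CPM in T+ dwarf and 636 to 812 CPM in T+ normal, against 92.4 to 148 CPM in the other 4 groups. The tissue label was checked against markers. The 3 green tissue genes (RBCS1A, RBCS3B and RCA) summed to 7837 to 22527 CPM per sample. The 5 root markers stayed at or below 0.461 CPM in sum, with PLT1 and EXP7 at 0 in all 20 samples. The 10 floral genes summed to 1.37 to 6.39 CPM per sample and the 2 pollen genes to at most 0.152 CPM. These markers thus show green tissue without root and give little sign of flowers. Single libraries stood apart within groups. T+ normal 1 held the highest value of its group for 28 of the 35 genes and Gen2 large 3 for 29. The lowest value of the group was held by Gen2 large 1 for 32, by WT 2 for 29 and by Gen2 dwarf 1 for 28. In bulk tissue, fewer green cells and less RNA per cell cannot be told apart.

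Photosystem II takes electrons from water at the oxygen-evolving cluster, and the cytochrome b6f complex passes them through plastocyanin to photosystem I, which reduces ferredoxin. Ferredoxin-NADP reductase makes NADPH from it, and the ATP synthase uses the proton gradient built on the way. Core reaction centre proteins are encoded in the plastid, while the nuclear genes here supply extrinsic and peripheral subunits and soluble carriers, whose transcripts are abundant in leaves.

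Levels per kilobase of annotated exon placed PSBR first in wild type (2071 CPM per kb), followed by PSAG (1921), PSAF (1726), PSBO1 (1695) and PSAL (1680.4), all on the scale of CPM per kb. The lowest were PETE1 (60.9 CPM per kb), FD1 (63.8), PSB28 (73.5) and PSB27 (109.8). The order holds for these deposited counts only. In the TAIR10.1 annotation 11 of the 35 genes overlap a neighbouring gene, and PSAD2, PSBP1 and FD1 overlap a gene on the same strand. Each file counts ambiguous reads apart, but how reads in such overlaps were assigned is not stated. PSBR and PSAG each overlap a gene on the opposite strand, while PSAF, PSBO1 and PSAL overlap none.

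Promoters were read as 250 bases before to 50 after the annotated start (RefSeq, TAIR10.1), on the strand of the gene, and searched on both strands for CACGTG (the G-box), GATAAG (the I-box), CCAATC and TATAAA. The G-box was present in 13 of the 35 windows (37.1%), against 7.68% of the 27443 protein-coding genes. GATAAG was present in 18 (51.4%), against 14.6%, CCAATC in 8 (22.9%), against 12.3%, and TATAAA in 18 (51.4%), against 52.1%. A match is a string of letters, with no evidence of binding, and these shares carry no test. The 250 bases before the start are shown for the 3 genes with the lowest p in the mean difference between dwarf and non-dwarf plants (PSB27, PSAP and PETC) and for the PSBQ1 and PSBQ2 copies, both with the G-box, whose ratio is described further on. Motif letters are in capitals, and no base after the start is shown. The windows are chr1:898230-898479 (plus strand), chr2:19243098-19243347 (plus), chr4:1439896-1440145 (plus), chr4:11334102-11334351 (plus) and chr4:2673244-2673493 (minus).
PSB27: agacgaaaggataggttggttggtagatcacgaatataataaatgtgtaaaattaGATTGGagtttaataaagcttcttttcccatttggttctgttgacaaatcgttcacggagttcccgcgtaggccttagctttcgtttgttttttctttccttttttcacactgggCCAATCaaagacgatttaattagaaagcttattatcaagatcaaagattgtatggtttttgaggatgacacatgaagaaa
PSAP: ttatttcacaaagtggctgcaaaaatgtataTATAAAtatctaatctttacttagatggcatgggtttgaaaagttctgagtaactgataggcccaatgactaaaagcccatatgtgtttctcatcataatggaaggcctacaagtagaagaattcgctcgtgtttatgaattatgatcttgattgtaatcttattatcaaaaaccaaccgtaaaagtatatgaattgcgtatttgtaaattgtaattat
PETC: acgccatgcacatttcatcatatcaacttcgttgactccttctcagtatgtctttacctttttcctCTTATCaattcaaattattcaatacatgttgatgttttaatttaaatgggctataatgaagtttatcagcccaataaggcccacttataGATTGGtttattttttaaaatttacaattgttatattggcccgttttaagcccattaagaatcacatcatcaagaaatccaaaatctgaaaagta
PSBQ1: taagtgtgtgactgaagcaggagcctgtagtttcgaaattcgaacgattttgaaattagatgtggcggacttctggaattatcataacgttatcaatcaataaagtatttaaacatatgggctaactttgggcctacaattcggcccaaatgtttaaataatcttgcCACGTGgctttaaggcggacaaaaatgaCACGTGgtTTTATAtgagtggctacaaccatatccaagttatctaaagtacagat
PSBQ2: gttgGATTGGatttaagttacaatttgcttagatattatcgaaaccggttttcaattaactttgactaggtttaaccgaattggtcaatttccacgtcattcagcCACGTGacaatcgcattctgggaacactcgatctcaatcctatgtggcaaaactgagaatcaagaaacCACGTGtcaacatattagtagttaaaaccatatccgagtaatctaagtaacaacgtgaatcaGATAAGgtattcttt

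Both PSBQ promoters hold 2 G-boxes, with the first bases 83 and 55 bases before the start in PSBQ1 and 145 and 77 bases before it in PSBQ2. In the bases shown, PSB27 holds CCAATC on both strands, PSAP holds TATAAA, and PETC holds GATAAG and CCAATC, each on the opposite strand. CACGTG is absent from the bases shown for PSB27, PSAP and PETC.

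Summed over the 35 genes, T+ normal samples stood highest (48891, 41895 and 39416 CPM) and Gen1 dwarf samples lowest (22257, 22518 and 23809.5 CPM). T+ dwarf had 23861, 28652 and 22626 CPM, Gen2 dwarf 23712, 28516, 29362, 29630.3 and 31083 CPM and Gen2 large 30168, 35343 and 44349.5 CPM, with WT at 33525, 26322 and 35319 CPM. All T+ normal sums lay above all T+ dwarf sums, whereas the Gen2 dwarf and Gen2 large sums overlapped, as did both with WT. Per gene, the highest group mean was that of T+ normal for 32 of the 35 and of Gen2 large for 3. The lowest was that of Gen1 dwarf for 30, of T+ dwarf for 4 and of Gen2 dwarf for 1.

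By complex the same order of groups appeared. Photosystem I sums were 16401 ± 2149.5 CPM (SD, n = 3) in T+ normal and 9425 ± 1364 CPM (SD, n = 3) in T+ dwarf. Photosystem II sums were 17437 ± 1820.0 CPM (SD, n = 3) against 9923 ± 1424 CPM (SD, n = 3). The 7 carrier genes summed to 6209 ± 494 and 3596 ± 265 CPM (SD, n = 3 each), and the 3 ATP synthase genes to 3354 ± 581 and 2102 ± 201 CPM (SD, n = 3 each). No sample of T+ dwarf reached the lowest T+ normal sample in any of the 4 complexes.

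**Figure D1:**
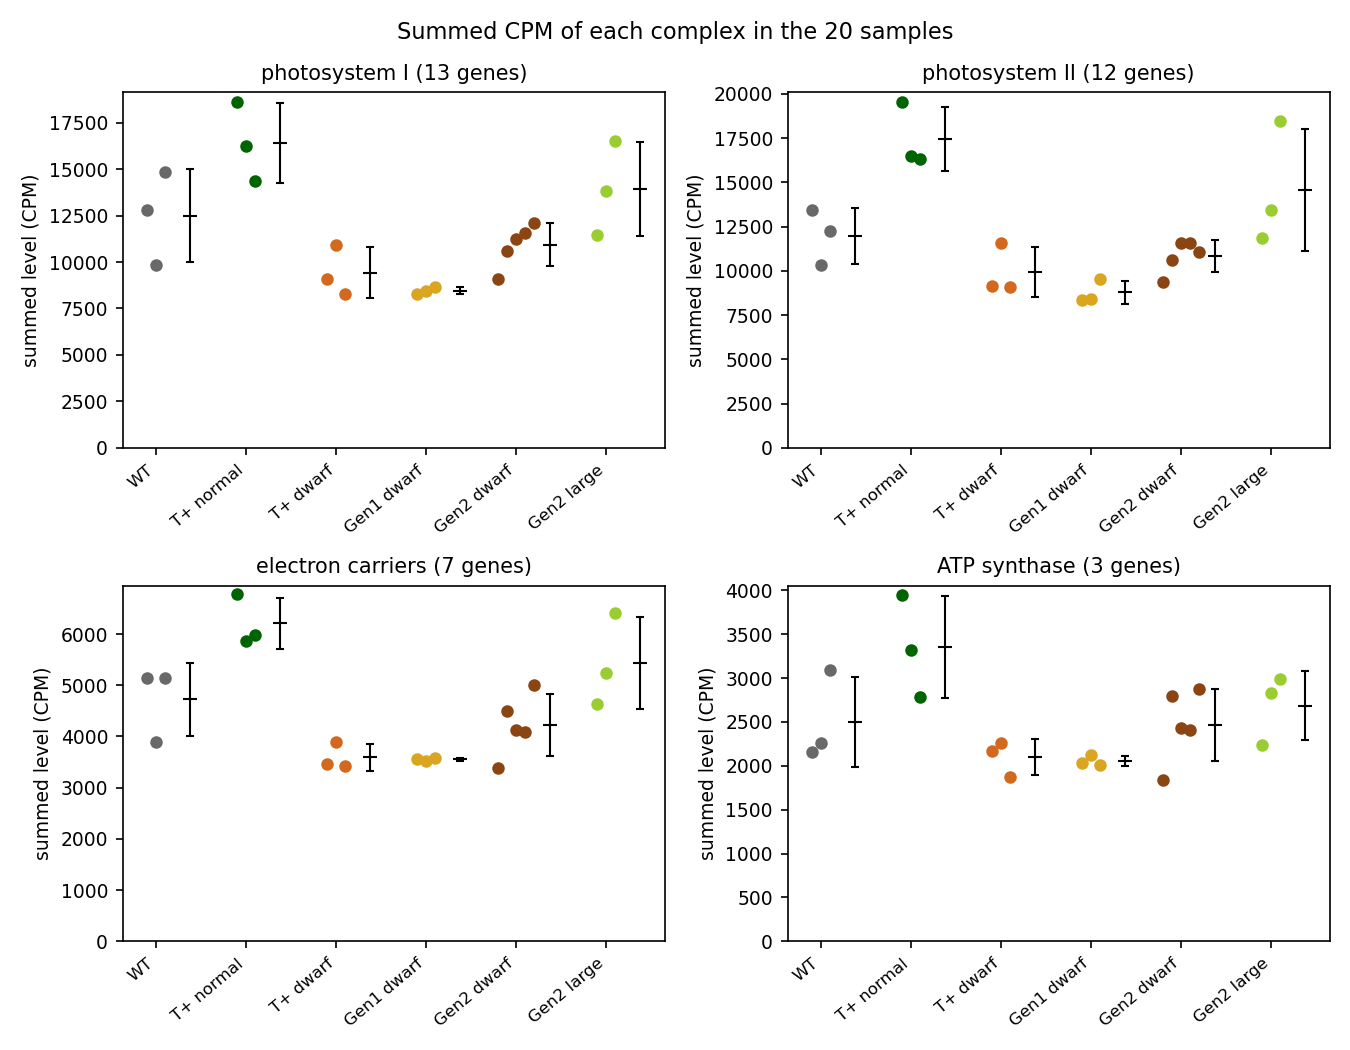
Summed level (CPM) of the 4 complexes in each of the 20 samples, by group; points are samples and the black dash with its bar is the group's mean ± SD. T+ normal samples lie above T+ dwarf samples in each panel, and Gen2 dwarf and Gen2 large samples overlap in the photosystem I, carrier and ATP synthase panels.

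The first comparison asks how dwarf carriers of the transgene differ from normal carriers. All 35 genes had a negative difference, against 48.5% of all genes, and 26 fell past the threshold (edgeR's quasi-likelihood test, Benjamini-Hochberg adjusted p below 0.05 over the 21703 genes), against 7.79% of all genes called lower. The median log2 difference of the 35 was −0.77, a level 0.586 times that of normal carriers, with a median of 0.01 over all genes tested. For 31 of the 35 the T+ dwarf samples lay below every T+ normal sample, against 15.7% of all genes. No gene of the set rose. Among all genes the split was 1565 higher and 1690 lower. With scaling to library size alone it was 2959 and 1219, the median of all genes moved to 0.11, and 25 of the 35 fell, with a median of −0.67.

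The second comparison sets dwarf against large plants within Gen2, none with the transgene. Here too all 35 differences were negative, against 10847 of the 21703 genes tested, with a median of −0.36 (0.778 times), against 0.00 over all genes, and 7 fell past the threshold, against 4.79% of all genes. These were PSAP, PSBO1, PSBP1, PSBTN, PSB27, PSB28 and FD2, all among the 26 that fell in T+. The samples did not overlap for 12 of the 35, against 11.7% of all genes, 34.3% of the set. Leaving out Gen2 large 3 left 0 of the 35 called, against 1.22% of all genes called lower. The median was then −0.17, with 32 of the 35 negative, so the Gen2 count rests on that library. Without Gen2 dwarf 2 the count was 3, against 3.43% of all genes, and without Gen2 large 2 it was 4, against 2.89%. Without Gen2 large 1 it was 8, against 2.32%, with a median of −0.50.

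Averaged over T+ and Gen2, the dwarf plants had 30 of the 35 genes called lower and none higher, against 13.3% of all genes called lower, and all 35 below 0, against 49.0%, with a median of −0.57 (0.676 times) and 0.01 over all genes. Of these, edgeR's fit of all samples (TMM scaling, count minimum of 10) called 7 in T+ and in Gen2 as well, 19 in T+ but not Gen2, and 4 in neither (PSAD1, PSAG, PSBR and PETE1). DESeq2 called 30 in T+, with PSAD1, PSAG, PSBR and PSAH2 added to the 26, against 9.98% of all genes called lower. In the average DESeq2 called 32, with PSAH2 and ATPG added to the 30, against 14.9%. PSAD2, PSAH2, PSBY, FD1 and ATPG were not called by that edgeR fit. At a count minimum of 50 edgeR called PSAH2 and ATPG in the average. FD1 was called in the average when Gen2 large 1 or Gen2 large 2 was left out. Without T+ normal 1 and Gen2 large 3, left out together after the values were seen, 21 of the 35 were called, all lower. Of all genes 10.8% were then called lower, and the median of the 35 was −0.48. Among all genes the split was 3379 higher and 2877 lower, and with scaling to library size alone 4328 and 2179, with 30 of the 35 still called.

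Some genes on marker lists of other tissues and states were also called in these comparisons. Of the 21703 genes tested, 1565 rose and 1690 fell in T+ dwarf, and 1881 rose and 1039 fell in Gen2 dwarf. The 4 woody stem genes tested, of 5, rose in T+ dwarf, at a summed 50.4 to 53.8 CPM against 11.5 to 33.0 CPM, and 2 rose in Gen2 dwarf, at 39.7 to 56.8 against 23.3 to 27.4 CPM. WT samples summed to 27.7, 56.4 and 49.6 CPM, so that WT 2 and WT 3 lay within the Gen2 dwarf range. Of the 9 floral genes tested, of 10, 3 rose and 1 fell in T+ dwarf, at 2.50 to 6.39 CPM against 1.56 to 2.18 CPM, and 0 rose and 1 fell in Gen2 dwarf, at 1.56 to 2.47 against 2.22 to 3.55 CPM. AP1, AP3 and PI, which specify sepals, petals and stamens, were the 3, and AG, which specifies stamens and carpels, the 1 in each comparison. Of the 6 senescence genes, 3 rose in T+ dwarf and 5 in Gen2 dwarf, at 171 to 211 and 184 to 253 CPM, against 127 to 134 and 118 to 144 CPM in the non-dwarf groups. NYE2, which acts in chlorophyll breakdown, and ORE1, a regulator of leaf senescence, rose in both comparisons. The 3 green tissue genes fell in T+ dwarf, at 8394 to 10542 CPM against 12688 to 22527 CPM, and RBCS1A fell in Gen2 dwarf, at a summed 8649 to 11472 against 12365 to 19074 CPM. In WT the sums were 1.37 to 2.83 CPM for floral, 130 to 173 CPM for senescence and 9790 to 13592 CPM for green tissue genes. SND1, STK, PLT1, EXP7, COBL9, VGD1 and the LAT52-like gene were under the filter, with at most 14 counts in a sample. The part of these tissues and states in the members' differences was not tested.

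**Figure D2:**
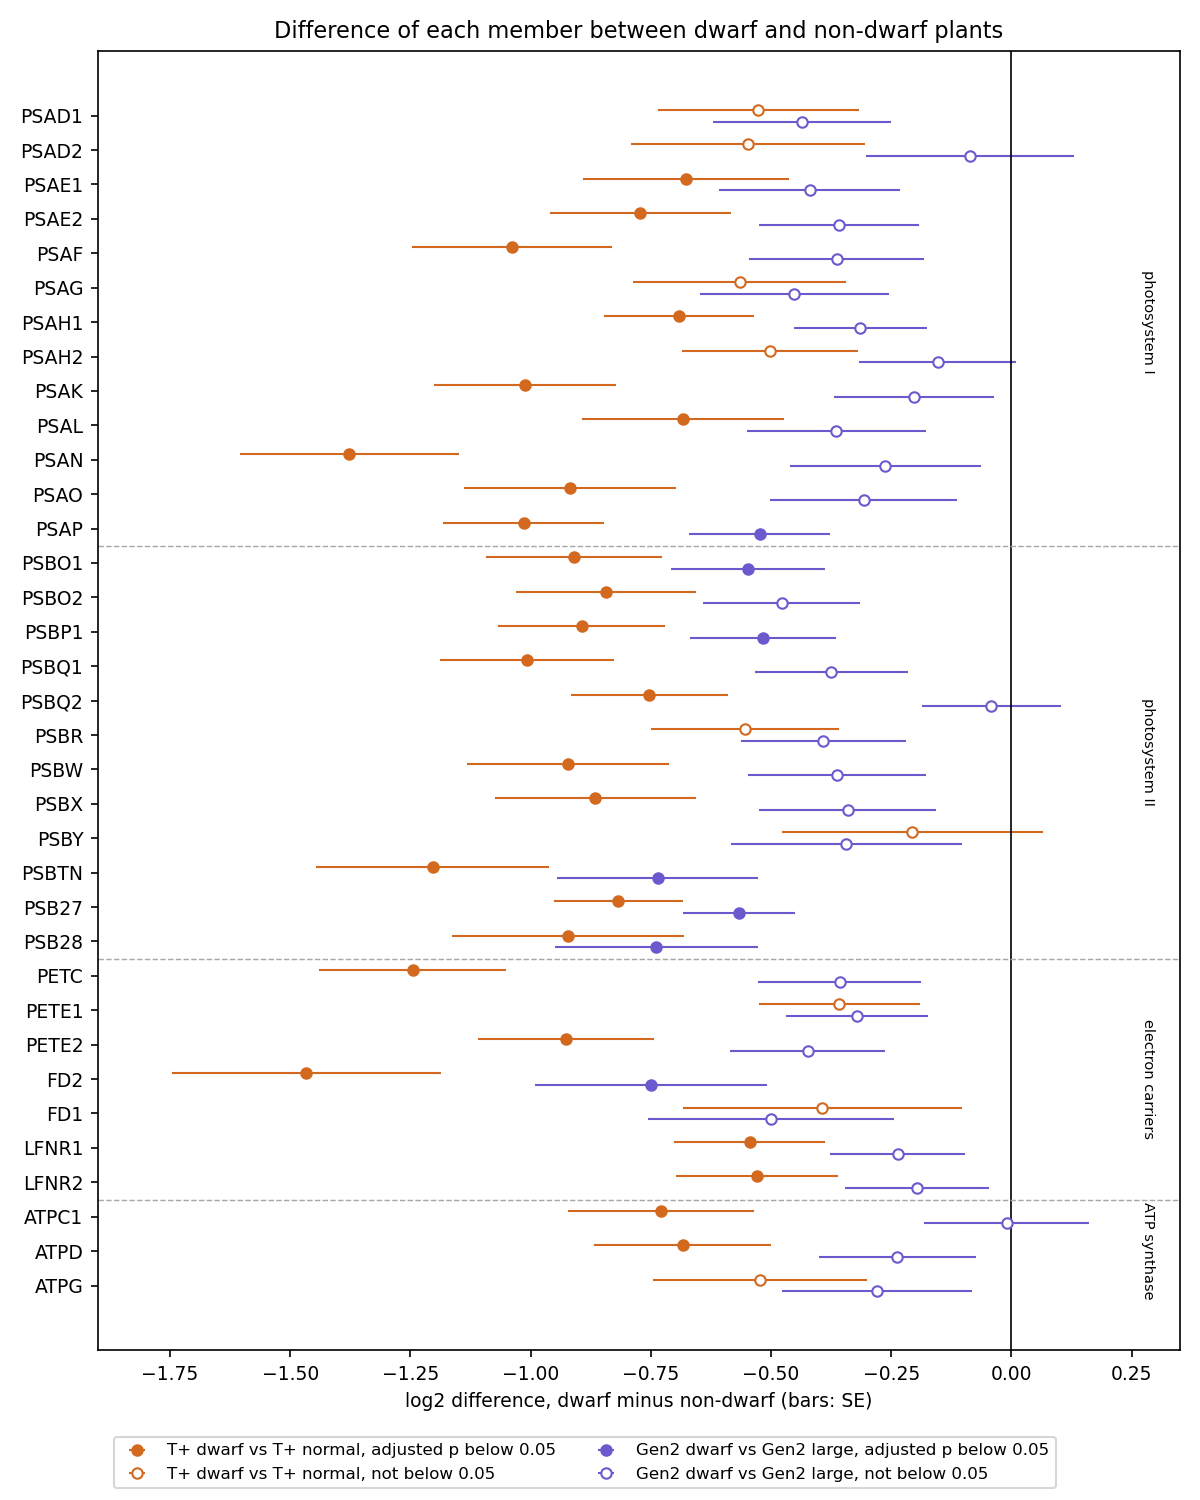
Log2 difference of each of the 35 genes, dwarf minus non-dwarf, with SE bars, within T+ (orange) and within Gen2 (purple); filled symbols have an adjusted p below 0.05 and dashed lines part the 4 complexes. All points lie below 0, with FD2, PSAN, PETC and PSBTN farthest from 0 in T+.

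Photosystem I had 9 of its 13 genes called lower in T+ dwarf, against 7.79% of all genes, with a complex median of −0.69. In Gen2 dwarf 1 of 13 was called lower, against 4.79% of all genes, with a median of −0.36. PSAN (AT5G64040), a lumenal subunit where plastocyanin docks, stood at 1307, 1193 and 1129 CPM in T+ normal and at 415, 584 and 399 CPM in T+ dwarf, a log2 difference of −1.38 ± 0.23 (adjusted p = 0.000933). No dwarf carrier reached a normal one, the highest dwarf value being 584 CPM against a lowest normal value of 1129 CPM. In Gen2, PSAN had 735, 989.5, 839, 782 and 1108 CPM in dwarf and 923, 1157 and 1125 CPM in large samples, a log2 difference of −0.26 ± 0.20 (adjusted p = 0.398). WT held 956, 581 and 1036 CPM and Gen1 dwarf 487, 399 and 671 CPM. PSAN sits on chromosome 5, bases 25628521 to 25629708 (TAIR10.1). PSAP (AT2G46820), the curvature protein CURT1B, stood at 1432, 1129 and 1130.2 CPM in T+ normal and at 553, 692 and 582 CPM in T+ dwarf, a log2 difference of −1.01 ± 0.17 (adjusted p = 0.000928). The Gen2 dwarf samples held 554, 723, 676, 668 and 858 CPM of PSAP and the large ones 885, 1016 and 1099 CPM, a log2 difference of −0.52 ± 0.15 (adjusted p = 0.0242). All 5 Gen2 dwarf samples were below all 3 large ones. WT had 921, 651 and 895 CPM and Gen1 dwarf 601, 557 and 547 CPM.

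PSAF (AT1G31330), the subunit that binds plastocyanin, stood at 3540.0, 3239.6 and 2480.4 CPM in T+ normal and at 1374, 1786 and 1349 CPM in T+ dwarf, a log2 difference of −1.04 ± 0.21 (adjusted p = 0.0028). Without the transgene, PSAF stood at 1576, 2179, 1991, 1916 and 2157 CPM in Gen2 dwarf and 2075, 2453 and 3051 CPM in Gen2 large (−0.36 ± 0.18, adjusted p = 0.188). Its T+ groups did not overlap and its Gen2 groups did. PSAK (AT1G30380), which binds the outer antenna, stood at 814, 725 and 765 CPM in T+ normal and at 321, 484 and 338 CPM in T+ dwarf, a log2 difference of −1.01 ± 0.19 (adjusted p = 0.00179). PSAK levels in Gen2 were 436, 449, 521, 527 and 609 CPM in dwarf and 486, 587 and 683 CPM in large samples (−0.20 ± 0.17, adjusted p = 0.437). PSAK was called in T+ and not in Gen2, and the difference between T+ and Gen2 did not pass the threshold (adjusted p = 0.154 in the interaction). PSAO (AT1G08380), a small subunit with a role in state transitions, stood at 1452, 1187 and 1408 CPM in T+ normal and at 457, 917 and 768 CPM in T+ dwarf, a log2 difference of −0.92 ± 0.22 (adjusted p = 0.0093). Gen2 values of PSAO were 744, 732, 851, 921 and 1002 CPM in dwarf and 860.4, 1047 and 1248 CPM in large samples, with a log2 difference of −0.31 ± 0.19 (adjusted p = 0.301). T+ dwarf 1 was the lowest of all samples for PSAO.

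PSAL (AT4G12800), which sits where the complex binds mobile antenna, stood at 2621, 2071 and 2223 CPM in T+ normal and at 1277, 1736 and 1293 CPM in T+ dwarf, a log2 difference of −0.68 ± 0.21 (adjusted p = 0.0345). In Gen2, PSAL had 1388, 1172, 1639, 1867 and 1596 CPM in dwarf and 1468, 1795 and 2654 CPM in large samples, a log2 difference of −0.36 ± 0.19 (adjusted p = 0.196). Gen2 dwarf and large overlapped for PSAL. PSAE1 (AT4G28750), a stromal subunit at the ferredoxin docking site, stood at 698, 543 and 524 CPM in T+ normal and at 405, 394 and 305 CPM in T+ dwarf, a log2 difference of −0.68 ± 0.21 (adjusted p = 0.0385). The Gen2 dwarf samples held 339, 329, 388, 440.2 and 397 CPM of PSAE1 and the large ones 444, 550.3 and 526 CPM, a log2 difference of −0.42 ± 0.19 (adjusted p = 0.14). The copy PSAE2 ran in the same direction. PSAE2 (AT2G20260), the other copy of that subunit, stood at 442, 361 and 518 CPM in T+ normal and at 206, 301 and 265 CPM in T+ dwarf, a log2 difference of −0.77 ± 0.19 (adjusted p = 0.0101). Without the transgene, PSAE2 stood at 257, 263, 292, 298 and 259 CPM in Gen2 dwarf and 295, 339 and 419 CPM in Gen2 large (−0.36 ± 0.17, adjusted p = 0.152). In both copies the T+ groups did not overlap.

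PSAH1 (AT3G16140), a copy of the subunit where mobile antenna docks, stood at 639, 583 and 554 CPM in T+ normal and at 330.4, 430.2 and 339 CPM in T+ dwarf, a log2 difference of −0.69 ± 0.16 (adjusted p = 0.0063). PSAH1 levels in Gen2 were 351, 337, 416, 446 and 401 CPM in dwarf and 394, 464 and 598 CPM in large samples (−0.31 ± 0.14, adjusted p = 0.131). PSAH1 was called against WT in Gen1 dwarf, and its WT samples held 587, 451 and 519 CPM with 318, 301 and 310.2 CPM in Gen1 dwarf. Its copy PSAH2 (AT1G52230) had 556 to 627 CPM in T+ dwarf and 679 to 959 CPM in T+ normal, without overlap (−0.50 ± 0.18, adjusted p = 0.0702). PSAD1 and PSAG were called by edgeR in the average of T+ and Gen2 but in neither alone, while DESeq2, and edgeR without T+ normal 3, called both in T+. PSAD1 (AT4G02770), a copy of the subunit that docks ferredoxin, stood at 1951, 1643 and 1221 CPM in T+ normal and at 1302, 1169 and 872 CPM in T+ dwarf, a log2 difference of −0.53 ± 0.21 (adjusted p = 0.0972). Gen2 values of PSAD1 were 888, 1050.3, 1139, 1208 and 1197 CPM in dwarf and 1225, 1463 and 1762 CPM in large samples, with a log2 difference of −0.44 ± 0.19 (adjusted p = 0.121). Its Gen2 groups did not overlap, while its T+ groups did. PSAD1 averaged −0.48 ± 0.14 over T+ and Gen2 (adjusted p = 0.0149). PSAG (AT1G55670), a membrane subunit that binds the light-harvesting antenna, stood at 2185, 2159 and 1329 CPM in T+ normal and at 1479, 1417 and 937 CPM in T+ dwarf, a log2 difference of −0.57 ± 0.22 (adjusted p = 0.0929). In Gen2, PSAG had 998, 1373, 1337, 1322 and 1284 CPM in dwarf and 1353, 1694 and 2132 CPM in large samples, a log2 difference of −0.45 ± 0.20 (adjusted p = 0.128). PSAG overlapped in both comparisons. PSAG averaged −0.51 ± 0.15 (adjusted p = 0.0151). The copy PSAD2 (AT1G03130) was not called by edgeR or DESeq2 in any comparison, at −0.55 ± 0.24 in T+ and −0.09 ± 0.22 in Gen2.

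**Figure D3:**
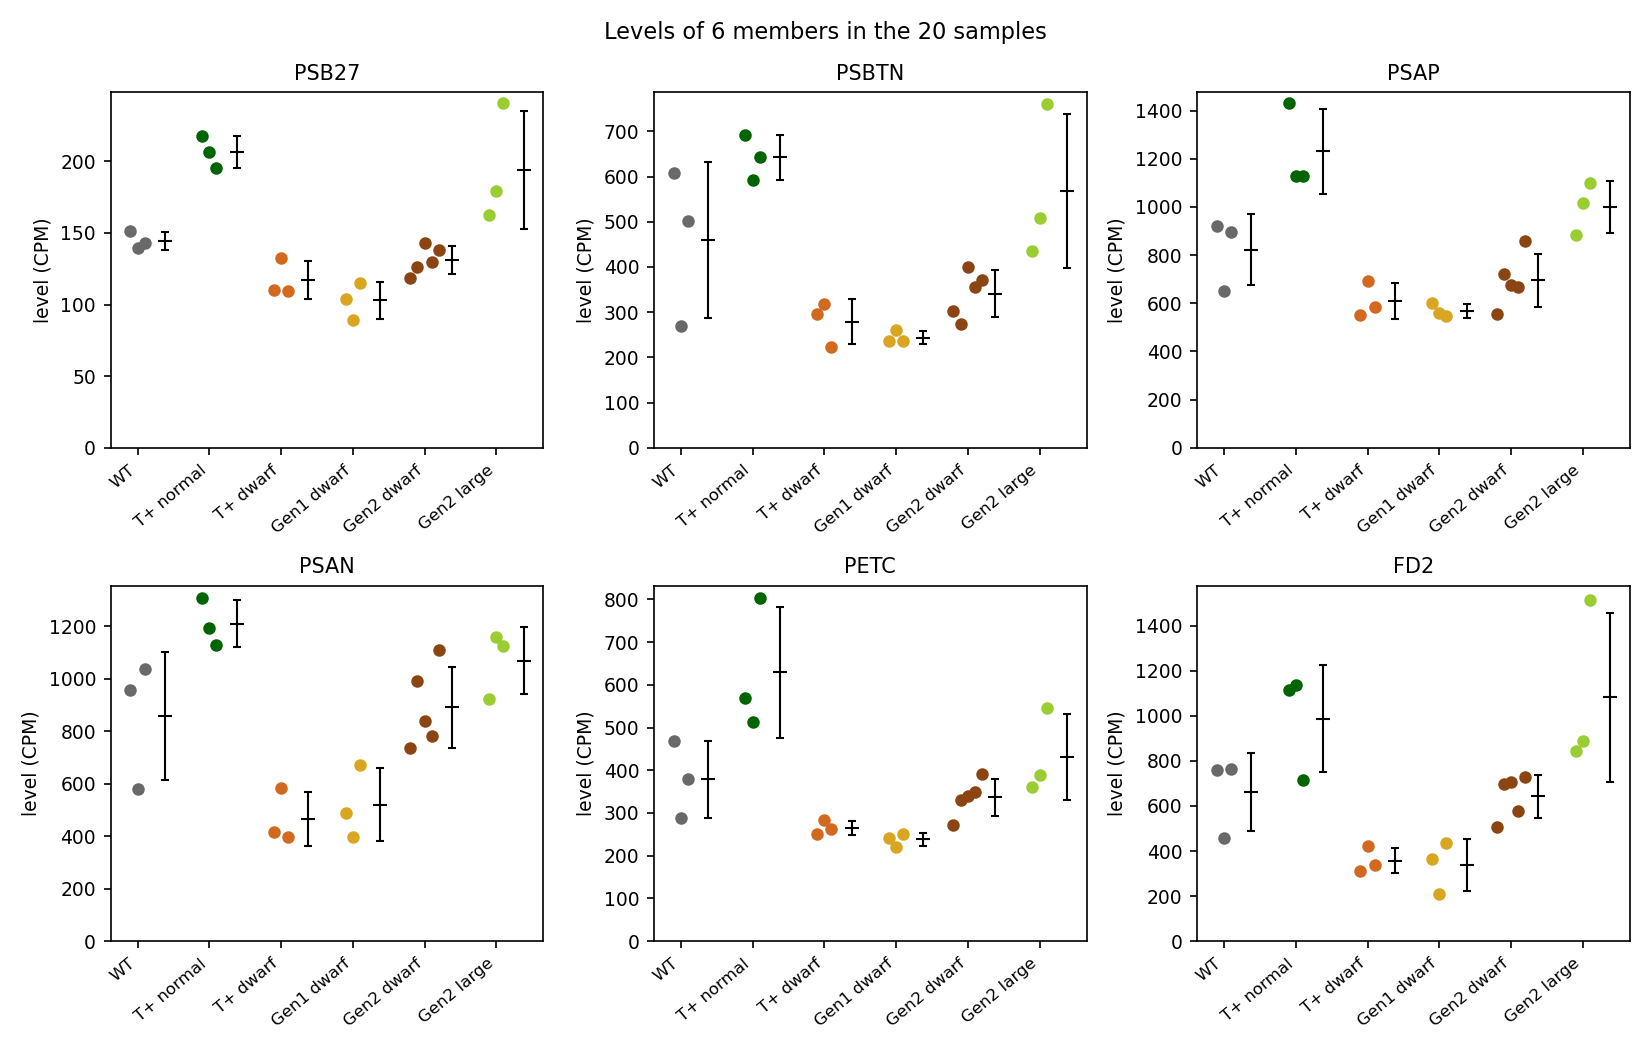
Levels (CPM, axis from 0) of PSB27, PSBTN, PSAP, PSAN, PETC and FD2 in the 20 samples; points are samples and black dashes with bars are the group's mean ± SD. T+ normal lies above T+ dwarf in all 6 panels, and the Gen2 large samples lie above the Gen2 dwarf samples for PSB27, PSBTN, PSAP and FD2.

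Photosystem II had 10 of 12 genes called lower in T+ dwarf (median −0.88), against 7.79% of all genes. In Gen2 dwarf 5 of 12 were called lower (median −0.43), against 4.79% of all genes. PSB27 (AT1G03600), which aids assembly and repair of the complex, stood at 218, 206 and 195 CPM in T+ normal and at 110.2, 132 and 109 CPM in T+ dwarf, a log2 difference of −0.82 ± 0.13 (adjusted p = 0.000881). The Gen2 dwarf samples held 119, 126, 143, 129.5 and 138 CPM of PSB27 and the large ones 162, 179 and 241 CPM, a log2 difference of −0.57 ± 0.12 (adjusted p = 0.00461). WT samples had 151, 139 and 143 CPM and Gen1 dwarf samples 104, 89.5 and 115 CPM, and in T+ and in Gen2 the dwarf samples lay below every non-dwarf sample. PSB27 had the lowest p of the 35 in the averaged comparison, −0.69 ± 0.09 (adjusted p = 3.92e-05), and its gene is on chromosome 1, bases 898480 to 899794 (TAIR10.1). PSBTN (AT3G21055), a small lumenal subunit, stood at 691, 592 and 644 CPM in T+ normal and at 295, 319 and 223 CPM in T+ dwarf, a log2 difference of −1.20 ± 0.24 (adjusted p = 0.00284). Without the transgene, PSBTN stood at 304, 274, 401, 357 and 370.1 CPM in Gen2 dwarf and 435, 508 and 760.1 CPM in Gen2 large (−0.74 ± 0.21, adjusted p = 0.0267). PSBTN had 607, 270.2 and 502 CPM in WT and 236, 261 and 235 CPM in Gen1 dwarf, and WT 2 lay within the range of the T+ dwarf samples.

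PSB28 (AT4G28660), another assembly protein, stood at 87.3, 75.0 and 106 CPM in T+ normal and at 51.8, 42.3 and 47.4 CPM in T+ dwarf, a log2 difference of −0.92 ± 0.24 (adjusted p = 0.0156). PSB28 levels in Gen2 were 38.6, 60.4, 47.7, 42.4 and 59.0 CPM in dwarf and 70.6, 70.0 and 108 CPM in large samples (−0.74 ± 0.21, adjusted p = 0.0278). Again T+ and Gen2 had no overlap. PSBO1 (AT5G66570), the main copy of the extrinsic protein that stabilises the manganese cluster, stood at 4680.3, 3897 and 3699 CPM in T+ normal and at 1981, 2592 and 1965 CPM in T+ dwarf, a log2 difference of −0.91 ± 0.18 (adjusted p = 0.00288). Gen2 values of PSBO1 were 2030.3, 2289.9, 2521, 2515 and 2357 CPM in dwarf and 2775, 3078 and 4417 CPM in large samples, with a log2 difference of −0.55 ± 0.16 (adjusted p = 0.0303). Of all samples, T+ normal 1 held the most PSBO1. PSBP1 (AT1G06680), an extrinsic protein beside it, stood at 3715, 3227 and 3122 CPM in T+ normal and at 1551, 2088 and 1778 CPM in T+ dwarf, a log2 difference of −0.89 ± 0.17 (adjusted p = 0.00233). In Gen2, PSBP1 had 1735, 2014, 2179, 2113 and 2138 CPM in dwarf and 2376, 2736 and 3630.2 CPM in large samples, a log2 difference of −0.52 ± 0.15 (adjusted p = 0.0309). For PSBO1 and PSBP1 the highest large sample was Gen2 large 3.

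PSBO2 (AT3G50820), the less abundant copy of the manganese-stabilising protein, stood at 814, 738 and 789 CPM in T+ normal and at 408, 487 and 410.3 CPM in T+ dwarf, a log2 difference of −0.84 ± 0.19 (adjusted p = 0.00567). The Gen2 dwarf samples held 387, 452, 481, 494 and 493 CPM of PSBO2 and the large ones 469, 570.1 and 888 CPM, a log2 difference of −0.48 ± 0.16 (adjusted p = 0.0585). PSBO2 missed the threshold in Gen2 by edgeR and passed it by DESeq2, and Gen2 large 1 lay among the dwarf samples. PSBQ1 (AT4G21280), an extrinsic protein of the lumen, stood at 1150.3, 984 and 851 CPM in T+ normal and at 462, 599 and 423 CPM in T+ dwarf, a log2 difference of −1.01 ± 0.18 (adjusted p = 0.00147). Without the transgene, PSBQ1 stood at 503, 627, 647, 636 and 669 CPM in Gen2 dwarf and 678, 752 and 968 CPM in Gen2 large (−0.37 ± 0.16, adjusted p = 0.122). All Gen2 dwarf samples stood below the large ones for PSBQ1. PSBQ2 (AT4G05180), its copy, stood at 1999, 1564 and 1640.2 CPM in T+ normal and at 906, 1256 and 925 CPM in T+ dwarf, a log2 difference of −0.75 ± 0.16 (adjusted p = 0.00482). PSBQ2 levels in Gen2 were 1098, 1318, 1287, 1396 and 1324 CPM in dwarf and 1137, 1359 and 1473 CPM in large samples (−0.04 ± 0.14, adjusted p = 0.879). The Gen2 groups of PSBQ2 overlapped.

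PSBW (AT2G30570), a small membrane subunit that links photosystem II complexes, stood at 1677, 1418 and 1376 CPM in T+ normal and at 576, 994 and 789 CPM in T+ dwarf, a log2 difference of −0.92 ± 0.21 (adjusted p = 0.00676). Gen2 values of PSBW were 824, 899, 957, 938 and 938 CPM in dwarf and 966, 1043 and 1505 CPM in large samples, with a log2 difference of −0.36 ± 0.18 (adjusted p = 0.194). The Gen2 groups of PSBW did not overlap. PSBX (AT2G06520), a small membrane subunit, stood at 1410.4, 1087 and 978 CPM in T+ normal and at 448, 759.6 and 700.1 CPM in T+ dwarf, a log2 difference of −0.87 ± 0.21 (adjusted p = 0.00957). In Gen2, PSBX had 646, 691, 736, 702 and 714 CPM in dwarf and 741, 776 and 1134 CPM in large samples, a log2 difference of −0.34 ± 0.18 (adjusted p = 0.221). T+ dwarf 1 held the lowest level of its group for both. PSBR (AT1G79040), a subunit needed for binding of extrinsic proteins, stood at 2205, 1795 and 2367 CPM in T+ normal and at 1502, 1609 and 1226 CPM in T+ dwarf, a log2 difference of −0.55 ± 0.19 (adjusted p = 0.0616). The Gen2 dwarf samples held 1233, 1129.6, 1519, 1668 and 1260.4 CPM of PSBR and the large ones 1422, 1640.1 and 2295 CPM, a log2 difference of −0.39 ± 0.17 (adjusted p = 0.133). By edgeR PSBR was called in the average, at −0.47 ± 0.13 (adjusted p = 0.0108), and in T+ when T+ normal 2 was left out; DESeq2 called it in T+. PSBY (AT1G67740), a small membrane subunit, was not called by edgeR or DESeq2 in any comparison, with T+ levels of 838, 688 and 479.6 CPM in dwarf and 889, 881 and 543 CPM in normal samples (−0.21 ± 0.27, adjusted p = 0.654).

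Of 7 electron carrier genes, 5 were called lower in T+ dwarf, against 7.79% of all genes, and 1 in Gen2 dwarf, against 4.79%. FD2 (AT1G60950), the main leaf ferredoxin, stood at 1115, 1135 and 714 CPM in T+ normal and at 313, 421 and 338 CPM in T+ dwarf, a log2 difference of −1.47 ± 0.28 (adjusted p = 0.00209). Without the transgene, FD2 stood at 508, 697, 705, 577 and 728 CPM in Gen2 dwarf and 844, 887 and 1513 CPM in Gen2 large (−0.75 ± 0.24, adjusted p = 0.0456). FD2 was the largest fall of the 35 in T+, and of all samples Gen2 large 3 held the highest level. WT samples held 760.1, 460.0 and 762 CPM and Gen1 dwarf 365, 211 and 436 CPM. PETC (AT4G03280), the Rieske iron-sulphur protein of the cytochrome b6f complex, stood at 570.1, 513 and 803 CPM in T+ normal and at 249.8, 283 and 263 CPM in T+ dwarf, a log2 difference of −1.25 ± 0.19 (adjusted p = 0.000748). PETC levels in Gen2 were 273, 329.9, 339, 350.2 and 392 CPM in dwarf and 361, 388 and 546 CPM in large samples (−0.36 ± 0.17, adjusted p = 0.164). WT held 467, 289 and 379.8 CPM and Gen1 dwarf 242, 221 and 251 CPM, so that all Gen1 samples lay below all WT samples. PETC is found on chromosome 4, bases 1440146 to 1441863 (TAIR10.1) and FD2 on chromosome 1, bases 22444307 to 22445291 (TAIR10.1).

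PETE2 (AT1G20340), the more abundant plastocyanin, stood at 1357, 1138 and 1350.5 CPM in T+ normal and at 639, 775 and 609 CPM in T+ dwarf, a log2 difference of −0.93 ± 0.18 (adjusted p = 0.00258). Gen2 values of PETE2 were 664, 835, 807, 738 and 878 CPM in dwarf and 875, 976 and 1306 CPM in large samples, with a log2 difference of −0.42 ± 0.16 (adjusted p = 0.0829). The T+ groups of PETE2 did not overlap. PETE1 (AT1G76100), the minor plastocyanin, stood at 96.2, 93.7 and 96.9 CPM in T+ normal and at 80.9, 74.0 and 69.0 CPM in T+ dwarf, a log2 difference of −0.36 ± 0.17 (adjusted p = 0.156). In Gen2, PETE1 had 50.4, 61.3, 76.9, 63.2 and 62.3 CPM in dwarf and 67.2, 66.4 and 102 CPM in large samples, a log2 difference of −0.32 ± 0.15 (adjusted p = 0.15). By edgeR PETE1 was called in the average (−0.34 ± 0.11, adjusted p = 0.0286), and it was the 1 gene of the 35 above WT in T+ dwarf and in Gen1 dwarf, by 0.23 ± 0.17 and 0.05 ± 0.17, neither past the threshold. LFNR1 (AT5G66190), a leaf ferredoxin-NADP reductase, stood at 1422, 1112 and 1061 CPM in T+ normal and at 873, 892 and 699.8 CPM in T+ dwarf, a log2 difference of −0.54 ± 0.16 (adjusted p = 0.0254). The Gen2 dwarf samples held 718, 903, 838, 916 and 1056 CPM of LFNR1 and the large ones 956, 1087 and 1089 CPM, a log2 difference of −0.24 ± 0.14 (adjusted p = 0.265). LFNR1 overlapped in Gen2. LFNR2 (AT1G20020), its copy, stood at 2144, 1811 and 1896 CPM in T+ normal and at 1269, 1402 and 1385 CPM in T+ dwarf, a log2 difference of −0.53 ± 0.17 (adjusted p = 0.0404). Without the transgene, LFNR2 stood at 1122, 1613, 1318, 1399.5 and 1845 CPM in Gen2 dwarf and 1488, 1798 and 1731 CPM in Gen2 large (−0.20 ± 0.15, adjusted p = 0.401). Both reductases lay lower in T+ dwarf without overlap. FD1 (AT1G10960), the minor leaf ferredoxin, had 71.8, 68.9 and 57.8 CPM in T+ normal and 43.3, 53.6 and 54.2 CPM in T+ dwarf (−0.39 ± 0.29, adjusted p = 0.388), and Gen2 large 3 stood alone at 115 CPM.

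The ATP synthase had 2 of 3 genes called lower in T+ dwarf, against 7.79% of all genes, and 0 in Gen2 dwarf, against 4.79%. ATPC1 (AT4G04640), the gamma subunit, stood at 2379, 1841 and 1499 CPM in T+ normal and at 1083, 1242 and 1125 CPM in T+ dwarf, a log2 difference of −0.73 ± 0.19 (adjusted p = 0.0161). ATPC1 levels in Gen2 were 1075, 1512, 1369, 1408 and 1633 CPM in dwarf and 1147, 1541 and 1540.0 CPM in large samples (−0.01 ± 0.17, adjusted p = 0.976). In Gen2 the ATPC1 samples overlapped. ATPD (AT4G09650), the delta subunit, stood at 755, 804 and 685 CPM in T+ normal and at 508, 482 and 406 CPM in T+ dwarf, a log2 difference of −0.68 ± 0.18 (adjusted p = 0.0177). Gen2 values of ATPD were 428, 699, 562, 546 and 680.4 CPM in dwarf and 567, 703 and 792 CPM in large samples, with a log2 difference of −0.24 ± 0.16 (adjusted p = 0.347). ATPG (AT4G32260), a membrane subunit of the stator, was not called by edgeR's fit of all samples with TMM scaling and a count minimum of 10. In the average it was called by DESeq2 and by edgeR at a count minimum of 50. Its levels were 580.3, 536 and 345 CPM in T+ dwarf and 817, 676 and 606 CPM in T+ normal (−0.52 ± 0.22, adjusted p = 0.121 by edgeR).

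An interaction term compared the size of the dwarf difference in T+ with that in Gen2. For 33 of the 35 genes, against 51.7% of all genes, the difference was more negative in T+, with a median of −0.38 on the log2 scale. By edgeR 0 were called, against 0.654% of all genes, and 8 had an unadjusted p below 0.05, against 12.6%. The lowest adjusted p was that of PSAN, −1.11 ± 0.30 (adjusted p = 0.0968). DESeq2 called 4 (PSAK, PETC, PSBQ2 and PSAN), all more negative in T+, against 1.93% of all genes called in that direction. A fit on the 4 groups alone called PSAN, against 0.421%. Without Gen2 large 3 the median was −0.56.

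Against WT, the non-dwarf carriers lay above and the dwarf groups below, with few calls. In T+ normal all 35 differences were positive, against 47.4% of all genes, with a median of 0.44 (1.35 times) and −0.02 over all genes. Of these edgeR called 0, against 0.534% of all genes called higher, while 18 had an unadjusted p below 0.05, against 15.4%. DESeq2 called 12, against 536 of 20989 genes called higher. PSB27 came nearest, at 0.52 ± 0.13 (adjusted p = 0.0581), with 13 of the 35 above all WT samples, against 7.09% of all genes. In Gen2 large 31 were positive, against 49.5% of all genes, with a median of 0.19. There edgeR and DESeq2 called 0, against 0.120% called higher by edgeR, and 4 had an unadjusted p below 0.05, against 15.1%. Without Gen2 large 3 that median was 0.04.

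Gen1 dwarf stood lowest. In this comparison 34 of the 35 lay below WT, against 49.8% of all genes, with a median of −0.47 (0.722 times), against 0.00 over all genes, and PSAH1 was the 1 member called at the count minimum of 10 with TMM scaling, at −0.75 ± 0.16 (adjusted p = 0.019), against 0.396% of all genes called lower. An unadjusted p below 0.05 was reached by 24, against 17.1%. The PSAH1 call was lost when Gen1 dwarf 1, 2 or 3 or WT 1 was left out. For 19 of the 35 the Gen1 samples lay below all WT samples, against 8.24% of all genes. Without WT 2, the lowest WT sample for 29 of the 35, 8 were called (PSAH1 with PSAF, FD2, PSAP, PSBTN, PETC, PSB28 and PSAN), and 1.17% of all genes were then called lower. With all samples, DESeq2 called 11, against 1.67% of all genes called lower. In T+ dwarf 34 were below WT, against 51.7% of all genes, with a median of −0.30. There edgeR called 0, against 0.0184% of all genes called lower, and 14 had an unadjusted p below 0.05, against 11.9%. DESeq2 called 1 (PSAN), against 0.417% of all genes called lower. Of the 35, 6 lay below all WT samples, against 6.40% of all genes. Without WT 2, 2 were called (PSBTN and PSAN), against 0.568% of all genes called lower. In Gen2 dwarf 29 were below WT, against 49.1% of all genes, with a median of −0.17. That median was −0.28 without WT 2 and −0.065 without WT 3, when 23 were below WT. There edgeR and DESeq2 called 0, against 0.0369% called lower by edgeR, and 2 had an unadjusted p below 0.05, against 13.1%. These comparisons share the WT samples.

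**Figure D4:**
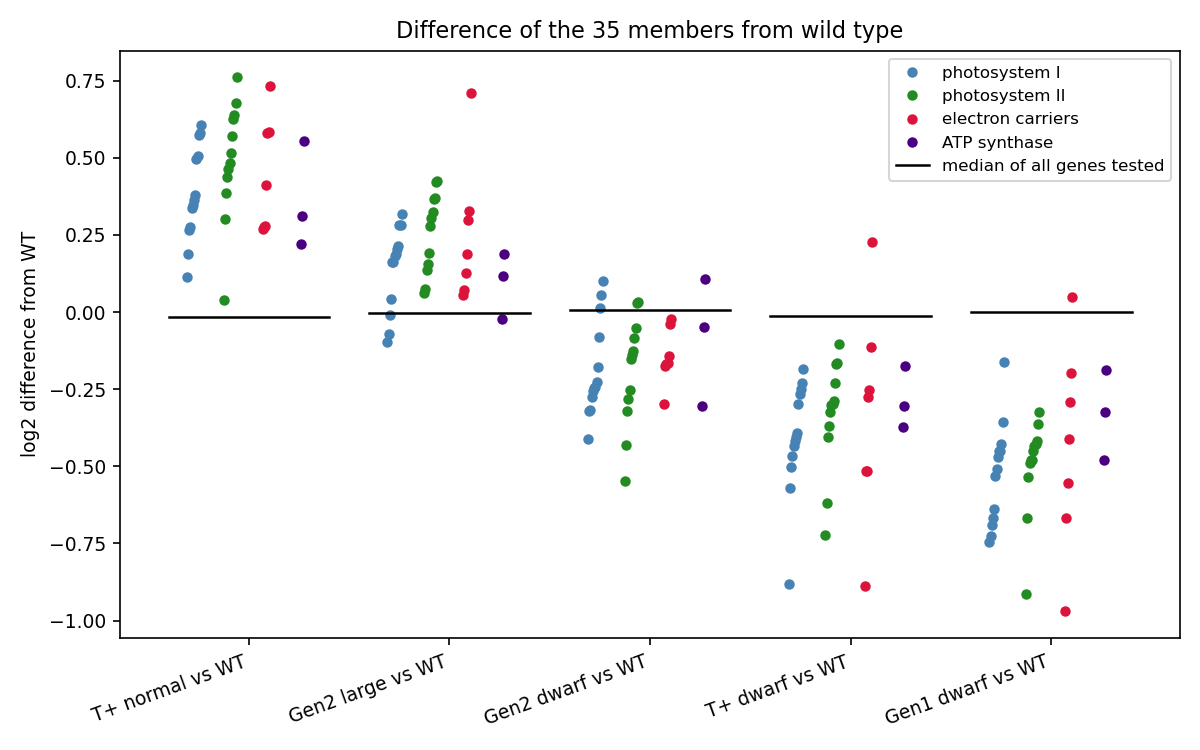
Log2 difference from WT of the 35 genes in the 5 other groups, coloured by complex; each point is a gene and the black line the median of all genes tested. All points of T+ normal lie above 0, those of Gen1 dwarf below it except PETE1, and T+ dwarf likewise.

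The next comparisons set the dwarf groups side by side. Between Gen1 dwarf and T+ dwarf 31 of the 35 lay lower in Gen1, against 47.3% of all genes, with a median of −0.15. Without T+ dwarf 2 the median was −0.068, and 21 lay lower. There edgeR and DESeq2 called 0, against 0.00461% of all genes called lower by edgeR, and 0 had an unadjusted p below 0.05, against 4.85%. From Gen1 dwarf to Gen2 dwarf 34 lay higher, against 49.1% of all genes, with a median of 0.29 (1.22 times). Again edgeR called 0, against 0.0922% of all genes called higher, and 11 had an unadjusted p below 0.05, against 9.22%. DESeq2 called 2 (FD2 and PSAN), against 145 of 23522 genes called higher. PSAN had the lowest adjusted p, at 0.78 ± 0.21 (adjusted p = 0.124), and 12 of the 35 lay above all Gen1 samples, against 3.06% of all genes.

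Close copies exist for 8 pairs, and the log2 ratio of their counts (with 0.5 added to each) was taken within each sample. Annotated coding sequences matched at 74.95% (PETE) to 87.97% (PSAD) of aligned bases, with the longest identical run at 35 bases in PSAD1 and PSAD2. The line for reads aligned to more than 1 place holds 0 in all files, and how such reads were treated is not stated. PSBQ1 over PSBQ2 stood at −1.13, −1.07, −0.99, −1.13 and −0.98 (log2) in Gen2 dwarf and at −0.75, −0.85 and −0.61 in Gen2 large, all dwarf values below all large ones. The difference was −0.33, an exact two-sided permutation p of 0.0179, the smallest that 56 arrangements allow, and 0.0714 adjusted over the 8 pairs. In T+ dwarf and normal the ratio was −0.97, −1.07 and −1.13 and −0.80, −0.67 and −0.95, a difference of −0.25 with no overlap (exact permutation p = 0.1, adjusted 0.267). The ratio was lower in dwarf samples in T+ and in Gen2, and neither adjusted p passed the threshold. WT samples stood at −1.09, −1.14 and −0.74, so that WT 1 and WT 2 were as low as dwarf samples.

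PSAD1 over PSAD2 differed by −0.33 in Gen2 (1.55, 1.49, 1.35, 1.44 and 1.34 in dwarf and 1.66, 1.65 and 1.98 in large samples), with the same exact permutation p of 0.0179, adjusted 0.0714. In T+ its difference was 0.03 (exact permutation p = 0.8), with 1.83, 1.60 and 1.78 and 1.73, 1.70 and 1.70 in dwarf and normal samples. FD1 over FD2 differed most in T+, by 1.05, at −2.85, −2.98 and −2.64 in dwarf and −3.96, −4.04 and −3.63 in normal samples, and PETE1 over PETE2 by 0.57, at −2.98, −3.39 and −3.14 and −3.82, −3.60 and −3.80. Both had an exact permutation p of 0.1, which is the smallest 3 samples against 3 allow, adjusted to 0.267, and neither showed an overlap. In Gen2 they differed by 0.33 and 0.11, with overlap (exact permutation p = 0.179 and 0.429). WT samples stood at −3.70, −3.02 and −3.99 for FD, with WT 2 within the Gen1 dwarf range of −3.18 to −2.82. For PETE the WT samples stood at −4.18, −3.73 and −3.78. For PSAD they stood at 2.06, 1.95 and 1.56, with WT 3 beside the highest Gen2 dwarf sample. The PSAE, PSAH, PSBO and LFNR ratios had exact permutation p-values of 0.196 and above in T+ and in Gen2.

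**Figure D5:**
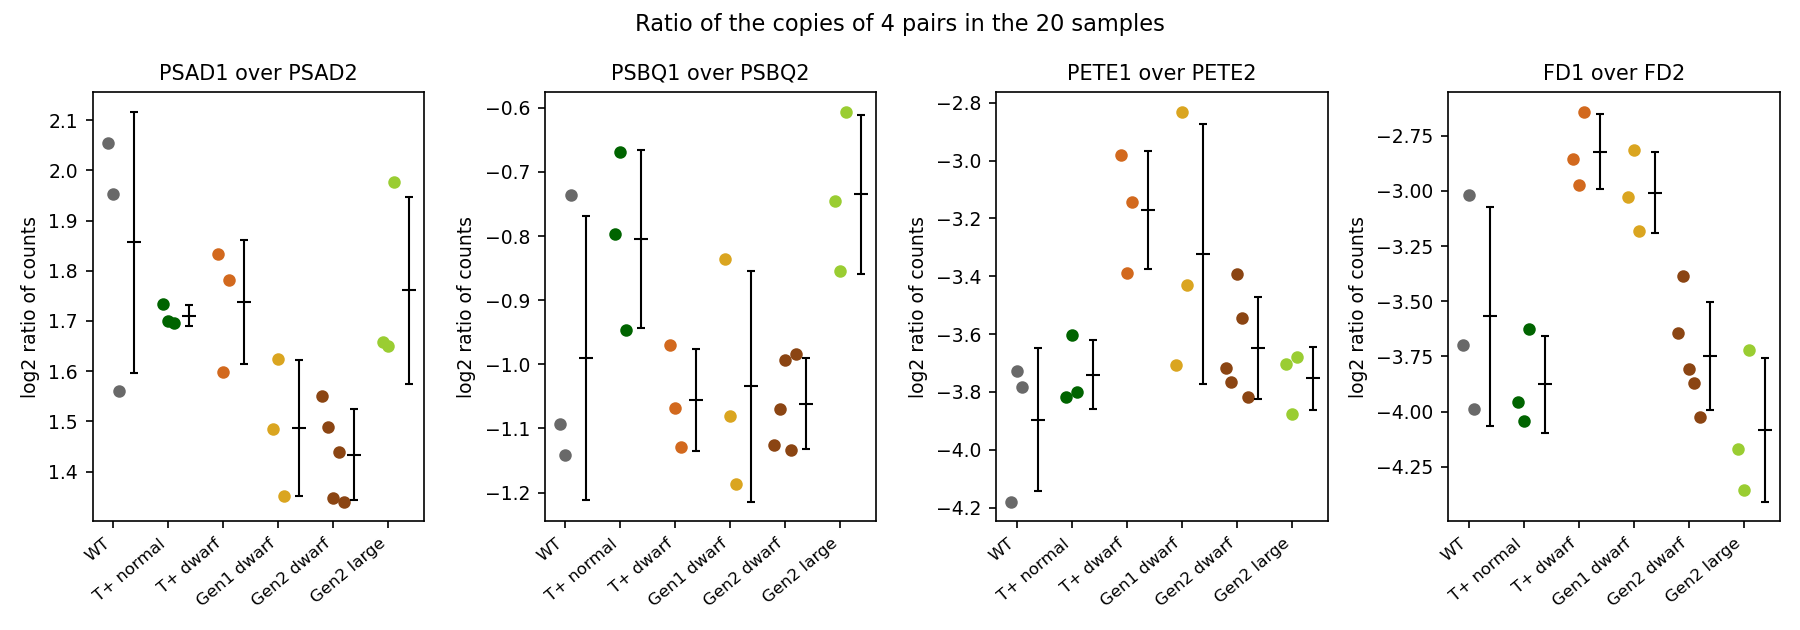
Log2 ratio of counts of the first over the second copy for PSAD, PSBQ, PETE and FD in the 20 samples; points are samples, black dashes with bars are the group's mean ± SD, and the axes do not start at 0. The group mean of FD1 over FD2 is highest in T+ dwarf and Gen1 dwarf, with WT 2 within the Gen1 dwarf range. PSBQ1 over PSBQ2 is lower in dwarf than in non-dwarf samples of T+ and of Gen2.

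Of 22 light-harvesting antenna genes 17 fell in T+ dwarf, 4 in Gen2 dwarf and 17 in the average, with medians of −0.85, −0.32 and −0.63, and none rose. For this list and those below, 7.79%, 4.79% and 13.3% of all genes tested were called lower in T+, Gen2 and the average. LHCA6 (−0.95 ± 0.12, adjusted p = 3.89e-05 in the average), LHCB1.1 (−1.06 ± 0.15, 9.74e-05) and LHCA5 (−0.63 ± 0.10, 0.000145) had the lowest adjusted p. Of 18 genes of the NDH complex and cyclic flow 11, 5 and 14 fell, led by NDHU, PNSL2 and PNSB3 (averages −0.89 ± 0.12, −0.74 ± 0.10 and −0.98 ± 0.14). Of 19 assembly factors 15, 6 and 16 fell, among them LQY1, a thiol oxidoreductase of photosystem II repair (−0.91 ± 0.10, adjusted p = 1.44e-05), PSB33 (−0.58 ± 0.09) and HCF244 (−0.55 ± 0.09).

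Of 12 minor isoforms and related proteins 7 fell in T+ dwarf, 0 in Gen2 and 7 in the average, with CURT1A, LPA19, FDC2 and CYTC6A the leading ones (T+ differences of −1.12 ± 0.18, −1.20 ± 0.20, −0.83 ± 0.16 and −1.14 ± 0.22), while RFNR1, a root-type reductase, rose in the average by 0.36 ± 0.11 (adjusted p = 0.0185). Of 18 regulators 2 rose and 3 fell in T+ dwarf, 1 rose in Gen2 dwarf, and 2 rose and 6 fell in the average. Among the 21703 genes tested, 1565 rose and 1690 fell in T+ dwarf, 1881 rose and 1039 fell in Gen2 dwarf, and 3379 rose and 2877 fell in the average. SIG5, a plastid sigma factor, rose in T+ and in Gen2, by 1.39 ± 0.25 (adjusted p = 0.00145) in T+ and 0.92 ± 0.22 (adjusted p = 0.0121) in Gen2. SIG2 fell in T+ (log2 difference −0.62 ± 0.16, adjusted p = 0.015), as did GUN5, a chelatase subunit of chlorophyll synthesis (−0.93 ± 0.22), and PIF3 rose (0.56 ± 0.17). Of 10 clock genes CCA1, PRR9 and RVE8 rose in T+ dwarf (1.03 ± 0.21, 1.21 ± 0.32 and 0.82 ± 0.22) and PRR9 in Gen2 dwarf (1.03 ± 0.29). The labels used here state no hour of harvest, and its part in the members' differences was not tested.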

How the data were processed

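RNA-seq gene counts of 20 samples in 6 groups were used. The authors deposited raw counts, 1 file per sample; the submitters' processing notes name Trim Galore 0.4.1, STAR 2.7.0a and the build TAIR10. No label or header names the program that counted, its annotation release or a strand setting. The 5 closing lines of each file that name no gene were left out: no_feature came to 0.776 to 1.14% of gene counts and ambiguous to 0.264 to 0.360%. Depth was 45728485 to 117753467 gene counts per sample, and replicates differed by far more than sampling noise (chi-square per gene 37.9 to 220.1), so each counts once.

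The deposited counts were scaled by TMM, filtered with filterByExpr (count minimum 10) and fitted over all 20 samples with edgeR 4.0.16 and limma 3.58.1 in R 4.3.3 (quasi-likelihood, robust, 14 residual degrees of freedom, biological coefficient of variation 0.225), with Benjamini-Hochberg adjustment over 21703 genes and a threshold of 0.05 in each of 11 comparisons. SE is the log2 difference over the root of F. Ratios of copies were tested by two-sided exact permutation. DESeq2 1.42.0 and other scalings, filters, sample sets, a replicate block and single-library omissions were alternatives. Scripts were tested on simulated data. Figures used Python 3.11.15 and matplotlib 3.10.9, and identities Biopython 1.88. The 35 genes and the other lists were chosen with earlier results of these data known. All members are named; per-sample values are given for those called, the leading ones of each complex and described pairs, and other lists name up to 5 called genes by p. Proteins, part of that rule, are not shown; the PSBQ promoters were chosen after values were seen.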

Additional observations from a re-analysis of the deposited data

Results flagged for a closer look

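In Gen2 dwarf, the only group large enough to test, the lowest sample lay far from the rest for 2 of the 35 genes. PSAG stood at 998 CPM in Gen2 dwarf 1, against 1284 CPM in the next lowest sample, a gap of 0.763 of the group's range. PSBQ1 stood at 503 CPM in the same sample, against 627 CPM in the next lowest, a gap of 0.748 of the range. Chance alone marks about 1 group in 20, and Gen2 dwarf 1 was the lowest of its group for 28 of the 35 genes.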

How the results depend on the processing

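In T+ dwarf against T+ normal and in the average of T+ and Gen2, members called and their medians kept direction and stayed within 1.5 times under every alternative run: 20 to 27 and 27 to 33 were called when 1 library was left out, and 17 and 26 of the same genes stayed called in all those fits. In Gen2 dwarf against Gen2 large, leaving out 1 library gave 0 to 8 called and medians of −0.50 to −0.17. In these fits the share of all genes called lower was 4.58 to 7.08% in T+, 10.6 to 13.7% in the average and 1.22 to 5.13% in Gen2. With a replicate block 2 were called within Gen2 (PSB27 and PSAP), against 1.70% of all genes called lower. It called 25 in T+ and 30 in the average, against 6.93% and 10.7%. Pooled over all groups, same-numbered samples showed no common deviation at the median (45 pairs, r from −0.36 to 0.36, median 0.01). This cannot exclude pairing within Gen2 alone, where samples numbered 1 were the lowest for 28 (dwarf) and 32 (large) of the 35. DESeq2 called 1 in T+ dwarf against WT, 12 in T+ normal against WT, 11 in Gen1 dwarf against WT, 2 in Gen2 dwarf against Gen1 dwarf and 4 in the interaction. A count minimum of 50 called 1 in T+ normal against WT, with 162 of 19674 genes called higher. It called 2 in Gen1 dwarf against WT, with 0.493% of all genes called lower. Scaling to library size alone called 3 in Gen1 dwarf, against 0.424%. Fits on the compared groups alone called 0 in Gen1 dwarf and 1 in the interaction. Leaving out 1 library gave 0 to 8 in Gen1 dwarf, 0 to 2 in T+ dwarf and 0 to 3 in T+ normal against WT. The 3 came without WT 1, when 185 of 21978 genes were called higher. Medians then ran from 0.036 to 0.31 in Gen2 large and −0.28 to −0.065 in Gen2 dwarf against WT (−0.26 with the replicate block). They ran from −0.21 to −0.068 between Gen1 and T+ dwarf and from −0.56 to −0.25 in the interaction. The cause of these shifts was not tested.

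Signs of small copy ratios turned when 1 library was left out: in Gen2 the range was −0.18 to 0.0049 for PSAE and −0.24 to 0.0040 for PSAH, and in T+ −0.019 to 0.097 for PSAD, −0.13 (−0.10 in another fit) to 0.26 for PSAE, −0.14 to 0.0027 for PSBO and −0.11 to 0.12 (0.045 in another) for LFNR. Over all genes DESeq2 called 122 against 11 by edgeR in T+ dwarf against WT, 1155 against 290 in T+ normal, 1143 against 437 in Gen1 dwarf, 367 against 21 in Gen2 dwarf and 743 against 209 in Gen2 large. It called 45 against 1 between Gen1 and T+ dwarf, 348 against 51 between Gen2 and Gen1 dwarf, and 639 against 142 in the interaction. Fits on the compared groups alone called 7, 52, 252, 4 and 119 genes against WT in that order, 2014 against 3255 within T+, 0 between Gen1 and T+ dwarf and 31 between Gen2 and Gen1 dwarf. The replicate block gave 7 in T+ dwarf and 4 in Gen2 dwarf against WT, 1356 against 2920 within Gen2, 0 between Gen2 and Gen1 dwarf and 93 in the interaction. Scaling to library size alone gave 454 in T+ normal against WT, split 105 higher and 349 lower against 116 and 174, and 76 higher and 53 lower in the interaction against 55 and 87. Without T+ normal 1 and Gen2 large 3 the interaction called 2 genes. Groups of 3 limit what can be called, and overlapping genes and copies limit how reads are assigned.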
